A study of Mus musculus with 12 samples.

Results

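The genes of MHC class II antigen presentation were read on every array of a mouse cornea series. The list holds 8 genes, Cd74, H2-Aa, H2-Ab1, H2-Eb1, H2-DMa, H2-DMb1, Ciita and Ctss. A gene was measured where a probe set carried its symbol alone, and its brightest such probe set by mean over 12 arrays was used. That gave 7 of the 8 genes, out of 18194 genes in all. Both probe sets of H2-DMb1 are also assigned to H2-DMb2, so no value is given for H2-DMb1. All corneas were from C57BL/6J mice and were taken whole, with 1 array per sample. The 8 intact samples fall into 4 genotypes with 2 biological replicates each. These are the Dscr-1-/- and ApoE-/- double null mutant (double KO), Dscr-1-/- (Dscr1KO), ApoE-/- (ApoeKO) and wild-type (WT). Another 4 corneas had been sutured: Dscr-1-/- on day 5, Dscr-1 Tg on day 7, and wild-type on days 5 and 7, with 1 array each. Dscr1 is an older name of Rcan1, whose product binds and restrains calcineurin, while Apoe codes for an apolipoprotein that carries cholesterol. The labels state neither the promoter of the Dscr-1 transgene nor the sex or age of the mice.

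MHC class II molecules show peptides from engulfed proteins to CD4+ T cells. An alpha and a beta chain pair in the endoplasmic reticulum around the invariant chain Cd74, which blocks the groove and guides the complex to endosomes. There the protease cathepsin S (Ctss) cuts the invariant chain down, and H2-DM, a dimer of H2-DMa and an H2-DMb chain, helps exchange the remaining fragment for an antigenic peptide. Dendritic cells, macrophages and B cells are the usual sources, and the normal cornea holds a sparse population of such cells. The class II transactivator Ciita switches the chain genes, Cd74 and H2-DM on together through shared promoter elements called the X and Y boxes, and interferon-gamma induces Ciita in many other cell types.

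The shared elements are shown as background, and their part in the values that follow was not tested. H2-DMb1 is shown although it has no value here. Of the 8 genes, 5 have an entry in the RefSeq promoter table (GRCm38.p6), and the 150 bases before the annotated start are given for 4 of them. H2-Aa is read from the minus strand, chr17:34287824-34287973, and H2-Eb1 from the plus strand, chr17:34305717-34305866. H2-DMb1 is on the plus strand at chr17:34153041-34153190 and Ctss on the plus strand at chr3:95526636-95526785. Capitals mark GATTGG (the Y box core, or CCAATC on the other strand), TGACGTCA (the cyclic AMP response element that an X box can hold), AACTGATGATGCT (a stretch of the X box region, taken as the longest run shared by the H2-Eb1 and H2-DMb1 windows) and the core of an interferon-stimulated response element, searched as GAAA, any 2 bases, GAAA.
H2-Aa: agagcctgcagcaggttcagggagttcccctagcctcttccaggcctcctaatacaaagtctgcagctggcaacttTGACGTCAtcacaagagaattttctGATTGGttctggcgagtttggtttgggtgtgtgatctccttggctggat
H2-Eb1: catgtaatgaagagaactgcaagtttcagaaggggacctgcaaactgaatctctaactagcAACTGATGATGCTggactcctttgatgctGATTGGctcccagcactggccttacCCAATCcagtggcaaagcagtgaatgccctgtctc
H2-DMb1: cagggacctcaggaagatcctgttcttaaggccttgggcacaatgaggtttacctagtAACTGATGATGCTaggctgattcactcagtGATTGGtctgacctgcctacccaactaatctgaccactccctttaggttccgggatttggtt
Ctss: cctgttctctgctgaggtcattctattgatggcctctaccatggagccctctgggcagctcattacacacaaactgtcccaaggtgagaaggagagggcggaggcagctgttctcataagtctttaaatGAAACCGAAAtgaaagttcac

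The 3 class II promoters shown carried a Y box core downstream of an X-type match, and the gap between them was 17 bases in H2-Aa, 16 in H2-Eb1 and 17 in H2-DMb1. H2-Eb1 had a further core on the opposite strand, 30 to 35 bases before the start. The 2 entries of H2-DMa held none of the 4 motifs in this window and are not shown. Ctss had neither an X-type match nor a Y box core in this window, and held the interferon-type element 12 to 21 bases before the start. Searched on both strands in the same window of 32851 promoter entries, the Y box core occurred in 10.9%, the cyclic AMP element in 1.36%, the interferon-type element in 1.59% and the X stretch in 0.00609%, the 2 entries it was derived from. Its rarity is therefore a description of those sequences. No motif overlapped another, and a match is a run of letters and not a shown binding site.

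**Figure D1:**
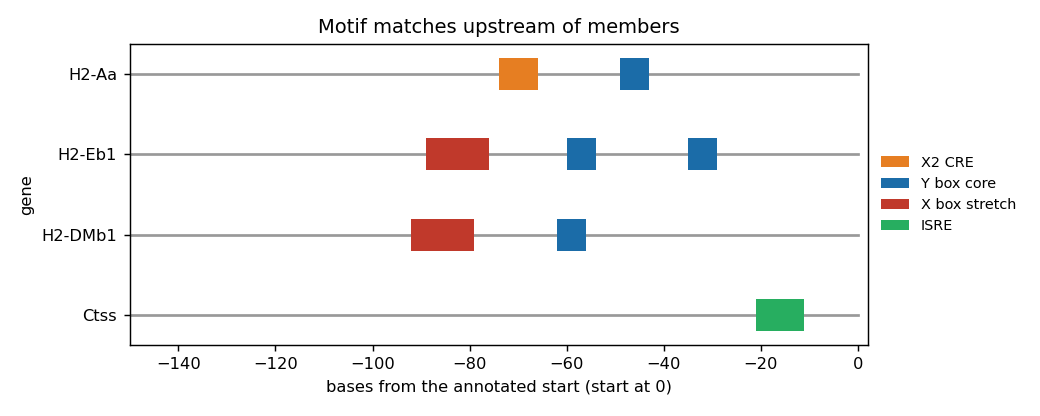
Positions of motif matches in the 150 bases before the annotated start (horizontal axis, bases from the start) of 4 genes (vertical axis), with boxes coloured by motif. The X-type match lies 16 to 17 bases before a Y box core in H2-Aa, H2-Eb1 and H2-DMb1, while Ctss has the interferon-type element near its start.

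Values are linear probe-set signals in intensity units, scaled by the authors to a common level on each array, with array medians between 15.6 and 21.1. Rcan1 read 379.6 and 331.7 in double KO, 477.5 and 335.9 in Dscr1KO, 668.2 and 581.3 in ApoeKO, and 630.4 and 649.5 in WT, and 548.3 in the sutured Dscr-1 Tg cornea, against 579.7 in sutured WT on day 7. It was thus lower in all 4 intact arrays labelled as lacking Dscr1 but not near 0, and the Tg cornea was not above WT. Some libraries stood apart from their labels. Apoe read 849.3 in the library labelled ApoeKO replicate 1, against 7.5 in replicate 2, and between 776.5 and 1030.5 in intact WT. The library labelled Dscr1KO replicate 2 read 316.8 for Apoe, and its labels name both genotypes. Xist read between 4104 and 5385.2 in 5 intact arrays, both ApoeKO, both Dscr1KO and double KO replicate 1. It read at most 19.6 in the rest. Eif2s3y, a gene of the Y chromosome, ran the other way, at most 9 in those 5 arrays and between 521.5 and 872.6 in the rest. Xist level and genotype therefore cannot be told apart between Dscr1KO and WT, or between ApoeKO and WT. Double KO replicate 1 also carried photoreceptor transcripts, with a summed level of 3236.1 over 4 genes, against 12.5 to 256.9 on the other arrays. Groups are as labelled throughout. The counts for the loss of Dscr1 are also given without ApoeKO replicate 1 and Dscr1KO replicate 2, and each intact array was left out in turn. The 6 corneal epithelial markers, Krt12, Krt5, Aldh3a1, Tkt, Clu and Pax6, summed to between 24607.2 and 38061.1 on all arrays.

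The class II chain genes were brightest in intact corneas lacking Dscr1 and dimmest in intact WT. H2-Aa, the alpha chain of the I-A molecule, read 348.6 and 1310.7 in double KO, 2151.9 and 908.5 in Dscr1KO, 218.8 and 203.6 in ApoeKO, and 129.5 and 81 in WT. H2-Ab1, the I-A beta chain, read 132.9 and 334.8 in double KO, 627 and 129.5 in Dscr1KO, 60.7 and 51.2 in ApoeKO, and 37.6 and 19.5 in WT. H2-Eb1, the beta chain of the I-E molecule, read 116.3 and 453.7 in double KO, 947.5 and 207.6 in Dscr1KO, 53.4 and 54.6 in ApoeKO, and 42.5 and 33.1 in WT. In each of these genes all 4 arrays without Dscr1 lay above all 4 intact arrays with it, as they did in 16.8% of all genes. Replicates differed widely where the levels were high, by 2.4-fold to 4.8-fold in Dscr1KO and by 2.5-fold to 3.9-fold in double KO. Mice of the C57BL/6 haplotype do not make the I-E alpha chain, and H2-Ea, looked up after these values were seen, read between 0.4 and 8.8 on every array.

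The other probe sets of the I-A chains gave the same direction. H2-Aa has 4 single-gene probe sets and H2-Ab1 has 3, and averaged over the Apoe labels the loss of Dscr1 raised all 4 H2-Aa probe sets by between 2.39 and 3.31 and all 3 H2-Ab1 probe sets by between 2.14 and 2.54 on the log2 scale. Each of these 7 passed when every probe set was tested (limma, adjusted p between 0.00303 and 0.039). In the main fit, on the brightest probe set of each gene, 16.3% of all genes rose. Probe sets of a gene were read on the same arrays, so they are not independent. The probe sets used for H2-Aa and H2-Ab1 have names ending in x_at and s_at, which mark probes that can also bind related transcripts. Such binding was not tested.

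Cd74, the invariant chain, read 64.9 and 207.5 in double KO, 478 and 87.3 in Dscr1KO, 49.5 and 46.9 in ApoeKO, and 39.9 and 27.2 in WT. H2-DMa, the alpha chain of the peptide exchange factor, read 29.9 and 68.5 in double KO, 139.4 and 30.7 in Dscr1KO, 28.4 and 28.4 in ApoeKO, and 22 and 17.3 in WT. The groups with and without Dscr1 did not overlap in either gene, with the arrays without Dscr1 higher, as in 16.8% of all genes. The gap in H2-DMa was narrow, since the dimmest array without Dscr1 read 29.9 and the brightest with it read 28.4.

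Ctss, the cathepsin that trims the invariant chain, read 1365.5 and 1897.7 in double KO, 1751.5 and 1078.2 in Dscr1KO, 613.3 and 431.8 in ApoeKO, and 206.9 and 209.4 in WT. Replicates lay 1.4-fold apart in double KO and 1.6-fold in Dscr1KO, closer than for the chain genes, and 1.4-fold apart in ApoeKO, wider than for the chain genes. Double KO replicate 1, the dimmest array without Dscr1 for H2-Aa and Cd74, was bright for Ctss. Ciita, the transactivator, read 3.6 and 10.9 in double KO, 21.9 and 11.2 in Dscr1KO, 13.9 and 7.3 in ApoeKO, and 12.5 and 8.3 in WT. Its genotype groups overlapped, and its level lay near the 3.6 added before taking logarithms. A dimmer Ciita probe set, below the filter on low values, read 1.8 and 13.1 in double KO, 45.1 and 7.6 in Dscr1KO, and between 1.2 and 4.9 in ApoeKO and WT.

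**Figure D2:**
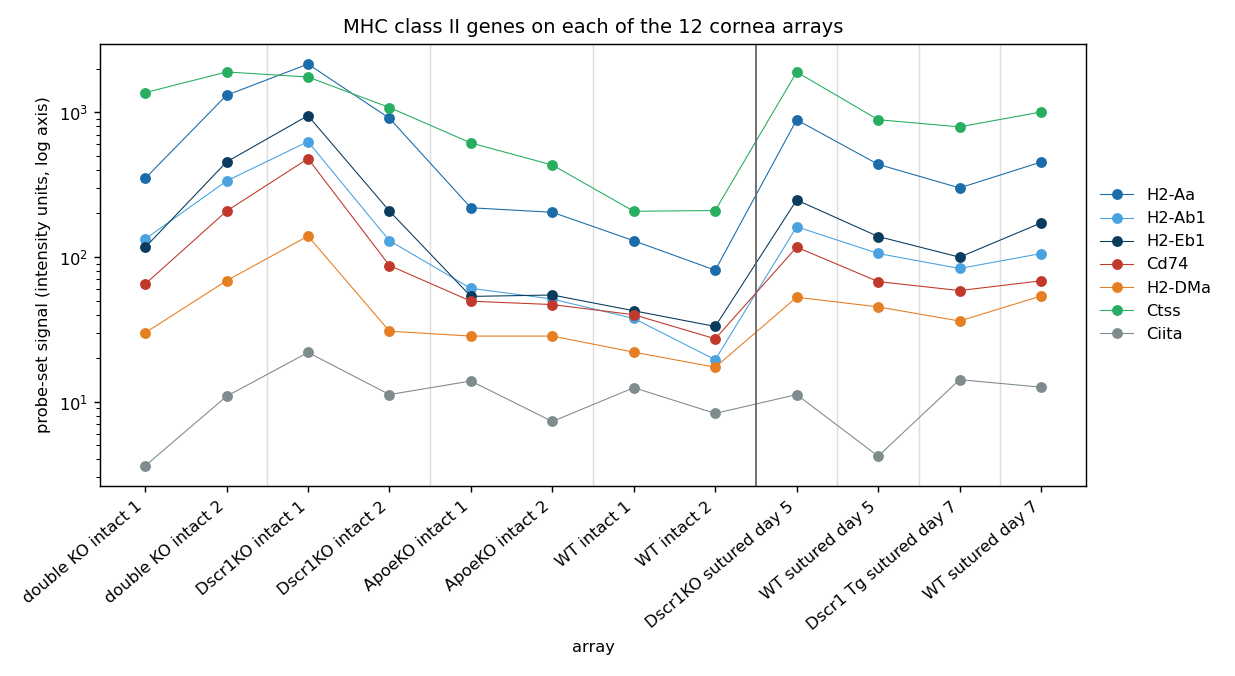
Signal of the 7 measured genes (vertical log axis, intensity units) on each of the 12 arrays (horizontal axis), with thin lines that only join points of 1 gene and a dark line between intact and sutured corneas. H2-Aa peaks at 2151.9 in Dscr1KO replicate 1 and is lowest at 81 in WT replicate 2, while Ciita stays at or below 21.9 throughout.

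The loss of Dscr1 was compared over 4 against 4 intact corneas, averaged over the Apoe labels, to ask which class II genes moved with it. Of the 7 genes, 5 rose and 0 fell at an adjusted p under 0.05 (limma with Benjamini-Hochberg adjustment over 12706 genes), where 16.3% of all genes tested rose. H2-Eb1 rose by 2.73 ± 0.54 on the log2 scale (SE, adjusted p = 0.00736) and H2-Aa by 2.69 ± 0.43 (adjusted p = 0.0033), or 6.66-fold and 6.47-fold. H2-Ab1 rose by 2.54 ± 0.50 (adjusted p = 0.00774) and Ctss by 2.17 ± 0.20 (adjusted p = 0.00032). Cd74 rose by 1.87 ± 0.54 (adjusted p = 0.0338), while the estimates for H2-DMa (1.11 ± 0.45, adjusted p = 0.0977) and Ciita (0.03 ± 0.35, adjusted p = 0.963) did not pass. The median change over the 7 genes was 2.17, against -0.02 over all genes. In 6 of the 7 genes, all but Ciita, the arrays without Dscr1 lay wholly above those with it, as they did in 16.8% of all genes.

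Without the libraries labelled ApoeKO replicate 1 and Dscr1KO replicate 2, 6 of the 7 genes rose (12.1% of all genes), the sixth being H2-DMa. Cd74 lost its call when any of WT replicate 1, WT replicate 2, ApoeKO replicate 1, ApoeKO replicate 2 or double KO replicate 2 was left out, and the 5 intact arrays with Xist gave Ctss alone (1.41 ± 0.26, adjusted p = 0.0358), where 4.64% of all genes rose. Those 5 hold no WT array, so this sets double KO replicate 1 and both Dscr1KO arrays against ApoeKO and is not an average over the Apoe labels.

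Dscr1KO against WT gave larger estimates. H2-Aa rose 13.2-fold (3.72 ± 0.61 on the log2 scale, adjusted p = 0.00951), H2-Eb1 by 3.45 ± 0.76 (adjusted p = 0.0271), H2-Ab1 by 3.23 ± 0.71 (adjusted p = 0.0274) and Ctss by 2.70 ± 0.28 (adjusted p = 0.00169). These 4 rises stand beside 7.86% of all genes. When every probe set was tested, the other H2-Aa probe sets also passed (adjusted p between 0.0143 and 0.0266). The other H2-Ab1 probe sets did not, at 2.77 ± 0.82 (adjusted p = 0.0737) and 2.41 ± 0.90 (adjusted p = 0.135). Cd74 (2.52 ± 0.77, adjusted p = 0.0728), H2-DMa (1.60 ± 0.64, adjusted p = 0.142) and Ciita (0.49 ± 0.50, adjusted p = 0.551) did not pass. Only Ctss passed without WT replicate 1 or without WT replicate 2. Leaving out ApoeKO replicate 1 or ApoeKO replicate 2, fitting the 4 arrays alone, or adding a term for Xist left H2-Aa and Ctss. That term is set by double KO replicate 1 against replicate 2 alone and moved H2-Aa to 5.62 ± 0.72 and H2-Eb1 to 5.38 ± 1.1 (adjusted p = 0.061). A total of 6 genes passed without Dscr1KO replicate 2 (6.52% of all genes rose), and also without both it and ApoeKO replicate 1, where 4.67% of all genes rose.

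Double KO against ApoeKO gives the loss of Dscr1 between groups that share the ApoE-/- label. Ctss rose 3.11-fold (1.64 ± 0.28, adjusted p = 0.00764), 1 of the 7 genes, where 11% of all genes rose. Estimates for the chain genes were positive but did not pass, at 2.02 ± 0.76 for H2-Eb1 (adjusted p = 0.1), 1.86 ± 0.71 for H2-Ab1 (adjusted p = 0.107) and 1.66 ± 0.61 for H2-Aa (adjusted p = 0.0957). Cd74 had 1.22 ± 0.77 (adjusted p = 0.302), H2-DMa 0.62 ± 0.64 (adjusted p = 0.533) and Ciita -0.43 ± 0.50 (adjusted p = 0.581). Without ApoeKO replicate 1 and Dscr1KO replicate 2 the count was again 1, where 8.92% of all genes rose. Ctss lost its call without ApoeKO replicate 2 and in the arrays with Xist (1.40 ± 0.37, adjusted p = 0.091). H2-Ab1 passed beside Ctss when only these 4 arrays were fitted, H2-Aa passed without double KO replicate 1, and H2-Eb1 and H2-Ab1 passed when either Dscr1KO replicate was left out.

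The difference between these 2 contrasts was tested directly. It was negative for all 7 genes, from -2.06 ± 0.87 for H2-Aa (adjusted p = 0.653) to -0.92 ± 0.71 for Ciita (adjusted p = 0.768), and 0 passed. Over all genes 1 passed this test, 0.00787%, with 962 at an unadjusted p under 0.05, H2-Aa and Ctss among them.

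**Figure D3:**
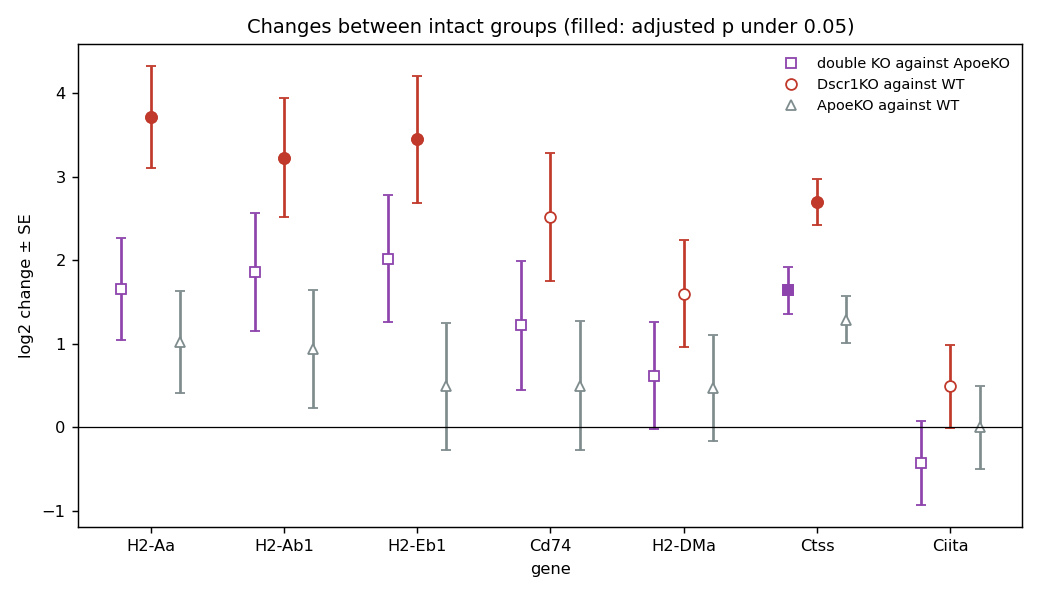
Log2 change with its standard error (vertical axis) of the 7 genes (horizontal axis) in double KO against ApoeKO, Dscr1KO against WT and ApoeKO against WT, where filled symbols passed at an adjusted p under 0.05. The chain genes lie at 3.23 to 3.72 in Dscr1KO against WT and at 1.66 to 2.02 in double KO against ApoeKO, and Ctss is the gene that passed in both.

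Double KO against WT raised 3 of the 7 genes, where 11.4% of all genes rose. Ctss rose by 2.93 ± 0.28 (adjusted p = 0.00079), H2-Ab1 by 2.80 ± 0.71 (adjusted p = 0.0297) and H2-Aa by 2.68 ± 0.61 (adjusted p = 0.02). H2-Eb1 missed the threshold at 2.51 ± 0.76 (adjusted p = 0.0531), and passed (adjusted p = 0.0342) once ApoeKO replicate 1 and Dscr1KO replicate 2 were left out. The call for H2-Ab1 was lost without ApoeKO replicate 1 or ApoeKO replicate 2, only Ctss passed without WT replicate 1, WT replicate 2 or double KO replicate 2, and 5 genes passed without Dscr1KO replicate 1 (15.9% of all genes rose) or without Dscr1KO replicate 2 (15.8%).

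Of the 7 genes, 0 passed between ApoeKO and WT, where 0.0236% of all genes passed in either direction and 477 had an unadjusted p under 0.05. The estimates were 1.29 ± 0.28 for Ctss (unadjusted p = 0.00185, adjusted p = 0.476), 1.02 ± 0.61 for H2-Aa and 0.94 ± 0.71 for H2-Ab1. Both ApoeKO arrays lay above both WT arrays in 6 of the 7 genes, all but Ciita, as they did in 21.1% of all genes. Ctss passed when only these 4 arrays were fitted. Xist was high in both ApoeKO arrays and low in both WT arrays, so Xist level and genotype cannot be told apart here. Between double KO and Dscr1KO 0 genes of the 7 passed (0.0236% of all genes, 1365 at an unadjusted p under 0.05). There the estimates ran from -1.04 ± 0.61 for H2-Aa to 0.23 ± 0.28 for Ctss. Without Dscr1KO replicate 2 they were -2.0 for Cd74 and -2.02 for H2-Eb1, and without Dscr1KO replicate 1 they were 0.4 and 0.15. With 2 arrays per group, the lack of a call does not show that double KO and Dscr1KO were alike.

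Sutured corneas lay between the intact extremes. H2-Aa read 886.3 in Dscr1KO and 436.4 in WT on day 5, and 300 in the Dscr-1 Tg cornea and 452.6 in WT on day 7. Cd74 read 116.9 in Dscr1KO and 67.6 in WT on day 5, and 58.6 in Tg and 68.4 in WT on day 7. H2-Eb1 read 247.5 in Dscr1KO and 138.5 in WT on day 5, and 99.7 in Tg and 171.8 in WT on day 7. All 4 sutured arrays lay above both intact WT arrays in 6 of the 7 genes, Ciita excepted, as they did in 15.5% of all genes. For these 3 genes the Dscr1KO cornea was the brightest of the sutured arrays. Ctss read 1895.5 in Dscr1KO and 888.3 in WT on day 5, and 792.1 in Tg and 1004.5 in WT on day 7. H2-Ab1 ranged from 83.3 in Tg to 161.8 in Dscr1KO and H2-DMa from 36.1 in Tg to 53.7 in WT on day 7. Ciita ranged from 4.2 in WT on day 5 to 14.2 in Tg.

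Suturing was tested in 7 arrays with Dscr1 genotype as a term, and 0 of the 7 genes passed, as did 0% of all genes, with 1251 at an unadjusted p under 0.05. Ctss had the lowest p (1.48 ± 0.37, adjusted p = 0.398), and it passed without the sutured Dscr1KO array. Fitted on the WT arrays alone, 2 sutured against 2 intact and none with Xist, 4 of the 7 genes rose, where 3.28% of all genes did. These were Ctss by 2.16 ± 0.12 (adjusted p = 0.00202), H2-Aa by 2.08 ± 0.22 (adjusted p = 0.0115), H2-Eb1 by 1.94 ± 0.21 (adjusted p = 0.0115) and H2-Ab1 by 1.82 ± 0.30 (adjusted p = 0.0329). H2-DMa (1.19 ± 0.25, adjusted p = 0.0545) and Cd74 (0.97 ± 0.24, adjusted p = 0.0833) did not pass. These WT sutured arrays were from different days, and the days enter that fit as replicates. Both intact Dscr1KO arrays were high in Xist (4104 and 5385.2), and the sutured Dscr1KO array was low (6). Within Dscr1KO, Xist level and suturing therefore cannot be told apart. The same holds for Xist level and a difference in suturing between genotypes. A term for suturing by genotype, added after the data were seen, was negative for all 7 genes, from -2.78 ± 1.0 for H2-Eb1 (adjusted p = 0.315) to -0.09 ± 0.77 for Ciita, and 0 passed (0.606% of all genes, 1782 at an unadjusted p under 0.05).

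Single sutured arrays were set side by side without a test. In Dscr1KO against WT on day 5 all 7 genes were higher, by a median of 0.82 on the log2 scale against 0.06 for all genes. Of these, 2 were past 2-fold, Ctss at 1.09 and H2-Aa at 1.02, where 4.19% of all genes were. Ctss, H2-Aa and Ciita (0.92) lay beyond the SD of their intact replicates (0.35, 0.84 and 0.54). H2-Eb1 (0.82), Cd74 (0.76), H2-Ab1 (0.6) and H2-DMa (0.21) lay within theirs (1.03, 1.04, 0.97 and 0.83). In Dscr-1 Tg against WT on day 7, 6 of the 7 genes were lower, by a median of -0.34 against -0.07, and 0 were past 2-fold in either direction (3.53% of all genes were lower by that much). H2-Eb1 had the largest of these differences at -0.76, within the 1.03 SD of its intact replicates. Between WT on day 7 and on day 5 the median was 0.18, and Ciita alone passed 2-fold at 1.05, where 3.32% of all genes were higher by that much.

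Averaged over the Apoe labels, 5 of 20 other genes of the class II route rose with the loss of Dscr1 and 3 fell, with a median of 0.06. Among all genes 16.3% rose and 15.4% fell, so in this fit the counts lie near the background. Without ApoeKO replicate 1 and Dscr1KO replicate 2 the share that rose was higher, at 35% beside 12.1% of all genes. Cd86, a costimulator that antigen-presenting cells show to T cells, rose by 2.12 ± 0.27 (adjusted p = 0.00123). Cst3, the cathepsin inhibitor cystatin C, rose by 1.18 ± 0.12 (adjusted p = 0.000546), and Ifi30, a lysosomal reductase that opens disulfide bonds in antigens, by 1.04 ± 0.13 (adjusted p = 0.0011). Cd40, a costimulatory receptor, fell by 1.5 ± 0.32 (adjusted p = 0.0101). Rfx5, a subunit of the complex that binds the X box, fell by 0.57 ± 0.15 (adjusted p = 0.0224). H2-Oa, whose product restrains H2-DM, read 1.4 and 8.3 in double KO, 31 and 19.1 in Dscr1KO, and between 0.7 and 5.7 in intact ApoeKO and WT.

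MHC class I genes as a list lay near the background. In the same average 4 of 15 rose and 1 fell, with a median of -0.04. Nlrc5, the class I counterpart of Ciita, rose by 2.32 ± 0.28 (adjusted p = 0.000967), while B2m, the class I light chain, rose by 0.97 ± 0.21 (adjusted p = 0.0105) and the heavy chain genes H2-K1 and H2-D1 by 0.49 ± 0.15 (adjusted p = 0.0398) and 0.35 ± 0.10 (adjusted p = 0.0311). Among 10 tested genes of the interferon-gamma axis, 1 rose and 3 fell, against the same 16.3% and 15.4% of all genes. Cxcl10, an interferon-induced chemokine, rose by 1.57 ± 0.50 (adjusted p = 0.0463), and Irf1, an interferon-induced transcription factor, fell by 1.19 ± 0.25 (adjusted p = 0.00944). Ifng itself read at most 4.4 on every array. Cxcl9, an interferon-gamma target below the filter, read 0.4 and 8.2 in double KO, 72 and 1.3 in Dscr1KO, and at most 0.8 in intact ApoeKO and WT.

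Leukocyte markers moved with the class II genes, and in whole corneas more cells of a type and more RNA per cell cannot be told apart. All 8 pan-leukocyte genes rose with the loss of Dscr1, by a median of 3.81. Ptprc, the common leukocyte antigen CD45, rose by 3.81 ± 0.53 (adjusted p = 0.0018) and Laptm5, a lysosomal protein of blood cells, by 4.07 ± 0.38 (adjusted p = 0.000366). Of 13 macrophage genes 10 rose, with Mpeg1 up by 3.62 ± 0.41 (adjusted p = 0.000756) and the complement gene C1qa by 3.13 ± 0.30 (adjusted p = 0.000392). Of 6 tested dendritic cell genes 3 rose, Fscn1, Clec10a and Irf8, by 2.13 ± 0.49 (adjusted p = 0.0137), 2.03 ± 0.37 (adjusted p = 0.00554) and 1.96 ± 0.41 (adjusted p = 0.0095). The Fscn1 product, fascin, is also made by other cell types. All 6 neutrophil genes tested rose, by a median of 4.37, as did all 7 keratinisation genes, by a median of 8.42. The keratinisation genes summed to 27061.3 and 27618.5 in double KO and to 15989.9 and 30421.7 in Dscr1KO. Their sum was at most 251.2 in intact ApoeKO and WT, and 253.8 in the sutured Dscr1KO cornea. The keratinisation rise was therefore not seen in every cornea without Dscr1, and its source was not tested. In the other direction 6 of 7 lens genes fell, by a median of -2.19, with the crystallin gene Crygd at -5.22 ± 0.43 (adjusted p = 0.000216). The lens genes summed to 46.8 to 129.8 in double KO, 320.4 to 618.7 in Dscr1KO, 107 to 472.5 in ApoeKO and 5385.4 to 7424.4 in WT. Of 6 stromal genes 2 fell. Kera, the corneal proteoglycan keratocan, fell by 2.06 ± 0.39 (adjusted p = 0.00634) and Aldh1a1 fell by 1.75 ± 0.49 (adjusted p = 0.0306). Of 6 epithelial genes 1 passed, the eye transcription factor Pax6, which fell by 1.18 ± 0.27 (adjusted p = 0.0135). Of 3 tested B cell genes 1 rose, and of 2 tested T cell genes 1 rose. All these counts stand beside 16.3% of all genes that rose and 15.4% that fell. The stromal, epithelial, B cell and T cell counts rest on few genes.

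In fits added after the data were seen, all 8 pan-leukocyte and all 6 neutrophil genes rose both without ApoeKO replicate 1 and Dscr1KO replicate 2 and without double KO replicate 1. The macrophage counts were then 9 and 10 of 13 and the dendritic cell counts 3 and 4 of 6. Of the 20 other class II genes 7 rose (35%) and 1 fell (5%) in the first of these fits. In the second 5 rose (25%) and 1 fell (5%). Of 15 class I genes 3 rose in the first (20%) and 2 in the second (13.3%), with 1 that fell in each. The 10 genes of the interferon-gamma axis gave 1 and 0 risers, with 2 and 3 that fell. Among all genes 12.1% rose and 8.37% fell in the first, and 14.3% rose and 12.2% fell in the second.

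Summed over the 13 macrophage genes, levels ranged from 4911.5 to 7684.8 in double KO, from 3209.1 to 9029.6 in Dscr1KO, from 880.1 to 1845.8 in ApoeKO and from 543.1 to 555.2 in WT. The 11 measured dendritic cell genes summed to 1176 to 1405.1 in double KO, 1040 to 3288.2 in Dscr1KO, 169.7 to 427.1 in ApoeKO and 470.6 to 520 in WT, most of it Fscn1. Cd207, the langerin of Langerhans cells, read at most 2.3 outside Dscr1KO replicate 2, where it read 9.6, and Flt3, the receptor that marks dendritic cell lineages, read at most 11.5 on every array. The 7 measured B cell genes summed to 78.2 and 107.3 in double KO, 296 and 66.7 in Dscr1KO, and at most 59.7 in intact ApoeKO and WT. Ms4a1, the B cell antigen CD20, read 85.7 in Dscr1KO replicate 1 and at most 11.6 on the other arrays, while Cd79a read at most 10 throughout. The 7 measured T cell genes summed to 80.2 and 208.6 in double KO, 251.5 and 153.6 in Dscr1KO, and at most 43.2 in intact ApoeKO and WT. The part of any of these cells in the class II levels was not tested.

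Set against the WT intact mean on the log2 scale, the marker lists differed in how they ordered the arrays without Dscr1. H2-Aa was higher by 1.73 and 3.63 in double KO and by 4.34 and 3.10 in Dscr1KO. The pan-leukocyte median was higher by 3.14 and 4.75 in double KO and by 4.77 and 3.81 in Dscr1KO, the same order of the 4 arrays as for H2-Aa. The macrophage median was higher by 2.88 and 3.35 in double KO and by 2.38 and 1.39 in Dscr1KO. That median put both double KO arrays above both Dscr1KO arrays, while the macrophage sum was highest in Dscr1KO replicate 1, and single genes differed. Csf1r, the receptor for the macrophage growth factor, read 1027.5 and 1427.9 in double KO and 2225 and 1653 in Dscr1KO. Ctss differed little across these arrays, at 2.69 and 3.17 in double KO and 3.05 and 2.35 in Dscr1KO. On day 5, H2-Aa was higher by 3.07 in the sutured Dscr1KO cornea and by 2.05 in the sutured WT cornea. The pan-leukocyte median was higher by 3.70 and 2.73 in these corneas, and the macrophage median by 2.85 and 1.66. The neutrophil median was higher by 2.59 and 3.86. Csf3r (70.8 and 62.9) and Cxcr2 (17.8 and 13.6) were slightly higher in Dscr1KO, and the other tested neutrophil genes were lower there. These are single arrays, and the part of any cell type was not tested. In ApoeKO, H2-Aa was higher by 1.07 and 0.97 in replicates 1 and 2, beside pan-leukocyte medians of 1.82 and 0.36.

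**Figure D4:**
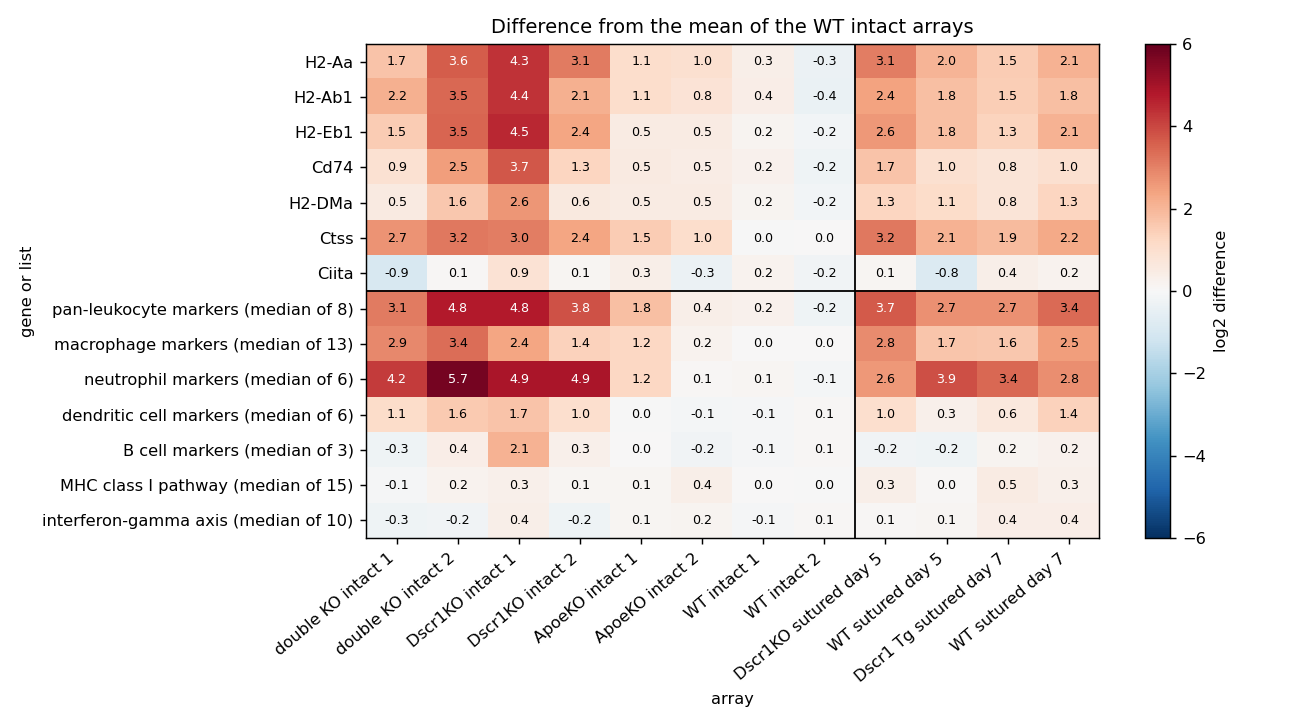
Log2 difference from the mean of the WT intact arrays (colour scale and printed values) for the 7 genes and for list medians of genes past the filter (rows), on each array (columns). H2-Aa is highest in Dscr1KO replicate 1 at 4.34, the macrophage median is highest in double KO replicate 2 at 3.35, and the class I and interferon-gamma medians stay between -0.28 and 0.49.

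Over the 12 arrays the class II genes followed each other closely, Ciita excepted. Pearson's r between a gene and the mean of the standardised log2 values of the other 6 was 0.974 for H2-Eb1, 0.967 for Cd74, 0.964 for H2-Ab1, 0.956 for H2-Aa, 0.933 for H2-DMa, 0.809 for Ctss and 0.349 for Ciita. These r describe 12 arrays that include replicates of a genotype, and they carry no test. Among the other tested genes the closest to the mean profile were Nckap1l (r = 0.971), AI662270 (0.955), Rab3il1 (0.954), Sash3 (0.954), Ccr2 (0.951), Ncf1 (0.944), Aif1 (0.944), Cd52 (0.942), Myo1f (0.941) and Pld4 (0.94). Ncf1 encodes a subunit of the phagocyte oxidase, Aif1 a protein of macrophages and microglia also called Iba1, and Ccr2 the chemokine receptor of inflammatory monocytes. Ccr2 read 9.6 and 34.6 in double KO, 166.2 and 15.3 in Dscr1KO, 11.8 and 4 in ApoeKO, and 3.3 and 3 in WT. Nckap1l, a regulator of actin in blood cells, read 36.5 and 112.7 in double KO, 119 and 53.1 in Dscr1KO, 30.3 and 20.4 in ApoeKO, and 14.9 and 14 in WT. Both were brightest in Dscr1KO replicate 1, the array that was also brightest for the class II chain genes.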

How the data were processed

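Total RNA of whole corneas was extracted on RNeasy columns and 100 ng was labelled by the Affymetrix procedure, per the labels' protocols. The deposited values are linear intensity signals of 45101 probe sets per array, on which the authors had already equalised the arrays: leaving off the top and bottom 2%, every array averages 100. The labels name neither the signal software nor detection calls. Symbols came from the platform table (34958 probe sets with 1 symbol, 932 with several, 9211 with none). The scale is log2(intensity + 3.6), the added constant being the 20th percentile of the whole table. Genes at or above the 40th percentile of mean log2 level were tested, 12706 in all, and all 7 measured genes passed this filter.

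The 8 intact arrays were fitted together by limma (version 3.58.1, under R 4.3.3). The model had a mean for each genotype and a trend of variance on level, and calls were made at a Benjamini-Hochberg adjusted p under 0.05. Suturing was fitted in 7 arrays. With 2 arrays per group, their number limits the precision. Each p-value sets a change against the spread between these samples, pooled over the arrays fitted and drawn toward the trend across genes. Alternatives were other pseudocounts, filters and scalings, every probe set, a replicate block, the groups compared alone, a term for Xist, and leaving out arrays. The genes and the lists were chosen with earlier results of these data known. Genes named beside them are up to 4 of a list with the largest changes past the threshold, genes whose levels bear on a cell type or pathway, named after their values were seen, and the 10 with the closest profile. Listed names of 2 genes were updated through their gene IDs. Plots used matplotlib 3.10.9 under python 3.11.15.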

Additional observations from a re-analysis of the deposited data

How the results depend on the processing

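Counts of the 7 genes past the threshold kept within 1.5 times of the reported count under other pseudocounts, filters, quantile normalization and the test of every probe set, in the 7 intact comparisons and in suturing. No such alternative was run for the term of suturing by genotype. Among the 5 intact arrays with Xist, none of them WT, 1 gene passed for the 3 arrays without Dscr1 against ApoeKO, beside 5 for the average over the Apoe labels, and 0 passed for double KO against ApoeKO. With only the groups compared in the fit, 2 genes passed in Dscr1KO against WT, 2 in double KO against ApoeKO and 1 in ApoeKO against WT. A term for Xist left 2 genes in Dscr1KO against WT, and the WT arrays alone gave 4 for suturing. Leaving out 1 array at a time gave 4 to 6 genes for the average, 1 to 6 for Dscr1KO against WT, 0 to 3 for double KO against ApoeKO, 1 to 5 for double KO against WT and 0 to 1 for suturing. The replicate numbers did not pair the samples (correlations of deviations between -0.046 and 0.074), and with the replicate block the counts stayed at 5, 4, 1 and 3 in these intact comparisons. Among all genes 4.64% rose in the 5 arrays with Xist and 3.28% in the WT arrays alone. For most other settings no such share is set beside the counts, which describe only how far the calls depend on the processing.

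Over all genes the calls ranged from 683 to 5959 around 4023 for the average, from 265 to 3863 around 1495 for Dscr1KO against WT, from 520 to 3936 around 2493 for double KO against ApoeKO, and from 700 to 3974 around 2555 for double KO against WT. They ranged from 0 to 203 for ApoeKO against WT, 0 to 104 for double KO against Dscr1KO, 0 to 36 for the difference between Apoe labels and 0 to 595 for suturing.

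Of 980 values of single genes under alternatives, 28 changed sign, none of them past the threshold before or after, and the cause was not tested. For Ciita the average turned to -0.0015 with the lower pseudocount and to -0.12 with quantile normalization, double KO against WT to 0.07 with a term for Xist, and ApoeKO against WT to 0.0031 with the higher pseudocount and 1.01 with a term for Xist. For Ctss, double KO against Dscr1KO turned to -0.12 without both libraries of doubtful Apoe level and to -0.0093 with a term for Xist. Leaving out single arrays gave signs of both kinds for Ciita in the average (-0.23 to 0.28), double KO against ApoeKO (-0.94 to 0.07), double KO against WT (-0.94 to 0.07) and ApoeKO against WT (-0.34 to 0.34). The same held in double KO against Dscr1KO for Cd74 (-2.0 to 0.4), H2-Ab1 (-1.55 to 0.69), H2-Eb1 (-2.02 to 0.15), H2-DMa (-1.54 to 0.52) and Ctss (-0.12 to 0.58), in the difference between Apoe labels for H2-DMa (-2.01 to 0.05), and in suturing for Cd74 (-0.04 to 0.97). Signals near the added 3.6, as for Ciita, carry little information on fold.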
